A study of Mus musculus with 12 samples.

Results

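Regulators of G protein signalling were followed over 7 days of angiotensin II in mouse vessels. They were 9 genes, Rgs1, Rgs2, Rgs3, Rgs4, Rgs5, Rgs7bp, Rgs10, Rgs16 and Rgs18, of 30145 genes represented on the array by a transcript cluster with a single symbol. Each was taken by its gene symbol in the array annotation, and each had 1 transcript cluster. Total RNA of vessels from male C57BL/6 mice aged 8 to 10 weeks was hybridised to 12 Affymetrix arrays, 3 at each of 4 times and described as biological replicates. Day 0 mice had no angiotensin II. The other mice carried osmotic pumps that delivered angiotensin II at 1500 ng per kg per min for 1, 3 or 7 days. The sources used here do not say which vessel was taken, whether mice were pooled or whether any mice carried a vehicle pump, so effects of angiotensin II cannot be told apart from those of pump surgery. All values are log2 signals as deposited, a difference of 1 unit is a doubling of the signal, and levels are compared between arrays but not between genes.

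Angiotensin II constricts arteries through the AT1 receptor, which couples to heterotrimeric G proteins of the Gq, G12/13 and Gi classes. RGS proteins bind the active G alpha subunit and speed up its hydrolysis of GTP, which ends the signal. Rgs2 is selective for Gq, and mice lacking it are hypertensive. Rgs4 and Rgs5 act on Gq and Gi and are known from smooth muscle and pericytes. Rgs1, Rgs10, Rgs16 and Rgs18 have been studied in blood cells, and not all of them only there. Rgs7bp is not itself a GTPase-activating protein: it is a palmitoylated anchor that holds complexes of Rgs7-type proteins with G beta 5 at the membrane, a role worked out in neurons.

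In outline, Rgs7bp fell on every day of infusion, Rgs4 fell at days 3 and 7 and Rgs5 fell at day 7. Rgs16 rose on every day, Rgs10 at days 3 and 7 and Rgs1 at day 7, all 3 with small changes near the background of the arrays. Rgs16 passed the filter on dim signals only through its treated arrays. Rgs2, Rgs3 and Rgs18 did not pass the test on any day. A gene is said to rise or fall when its Benjamini-Hochberg adjusted p over the 21717 genes tested was under 0.05 in limma.

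Of the 9 genes, 6 lie on mouse chromosome 1, where Rgs4 and Rgs5 are next to each other. Rgs1, Rgs2 and Rgs18 lie close together there, separated in the order of protein-coding genes by Rgs13 and Rgs21. RefSeq promoter windows of the GRCm38.p6 build, running from 250 bases before to 50 bases after the start of a transcript, were found for 7 of the 9. Rgs1 and Rgs18 are named only. The windows of the 3 genes that fell are shown because Rgs4 and Rgs5 are neighbours and all 3 moved together over the arrays. They are chr1:169747593-169747892 on the minus strand for Rgs4, chr1:169655251-169655550 on the plus strand for Rgs5 and chr13:105054881-105055180 on the minus strand for Rgs7bp, each written 5′ to 3′ with capitals marking the TATA box motif.
Rgs4: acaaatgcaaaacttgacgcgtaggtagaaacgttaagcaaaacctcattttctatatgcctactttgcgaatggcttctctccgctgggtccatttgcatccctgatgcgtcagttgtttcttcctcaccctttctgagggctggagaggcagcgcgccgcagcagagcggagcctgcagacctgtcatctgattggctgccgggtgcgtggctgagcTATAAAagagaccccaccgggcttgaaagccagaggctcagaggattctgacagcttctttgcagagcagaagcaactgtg
Rgs5: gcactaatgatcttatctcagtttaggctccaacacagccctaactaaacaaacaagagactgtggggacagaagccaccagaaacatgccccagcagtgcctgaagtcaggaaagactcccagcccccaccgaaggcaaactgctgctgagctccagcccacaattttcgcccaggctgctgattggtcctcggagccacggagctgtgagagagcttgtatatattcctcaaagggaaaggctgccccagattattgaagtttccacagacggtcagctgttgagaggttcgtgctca
Rgs7bp: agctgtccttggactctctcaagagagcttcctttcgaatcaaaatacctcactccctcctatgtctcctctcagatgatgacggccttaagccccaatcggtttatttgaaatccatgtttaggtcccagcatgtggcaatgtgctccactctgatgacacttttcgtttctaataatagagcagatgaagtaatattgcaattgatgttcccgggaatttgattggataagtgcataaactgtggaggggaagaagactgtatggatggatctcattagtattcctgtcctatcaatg
Both strands were searched for the TATA box TATAAA, the AP-1 site TGANTCA, the cyclic AMP response element TGACGTCA, the GC box GGGCGG, the E-box CACGTG and the CArG box of serum response factor, which can overlap a TATA box. Rgs4 held a TATA box that starts 31 bases before its start site, and Rgs5 and Rgs7bp held no match to these patterns. A TATA-like stretch that differs from TATAAA was not counted. Rgs3, with a window for each of 2 start sites, held the TATAAA pattern in both, with its first base at -100 and -177 from the start site, farther away than in Rgs4. The TATA box pattern was found, at any position and on either strand, in 13.6% of all 32851 RefSeq windows of this length. GC boxes, present in 35.7% of all windows, were found in those of Rgs2 (4 matches), Rgs16 (2), Rgs10 (2) and Rgs3 (1). The AP-1 site, the cyclic AMP response element, the E-box and the CArG box, present in 7.81%, 1.79%, 7.15% and 1.63% of all windows, were in none of the windows of the 7 genes.

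The arrays differed in ways that bear on these genes. Pearson r between arrays of a day lay between 0.974 and 0.993. The median of positive control features minus that of negative control features averaged 2.59 ± 0.05 on the day 0 arrays, 2.25 ± 0.29 on day 1, 1.98 ± 0.14 on day 3 and 1.76 ± 0.49 on day 7 (SD, n = 3 each). On each of the 9 treated arrays it was below all day 0 arrays (exact permutation test, two-sided p = 0.1 on each day, the smallest that 3 against 3 allow). The mean of 5 sympathetic neuron genes (Th, Dbh, Stmn2, Snap25 and Prph) lay over 1 unit above the negative control median on 4 arrays: day 0 replicate 2, day 1 replicate 2 and day 7 replicates 2 and 3. The mean of 10 adipocyte genes was lowest, at 9.17, on day 1 replicate 1 and lay between 9.77 and 10.72 on the other 11 arrays. Against day 0 it was -0.72 at day 1, -0.65 at day 3 and -0.45 at day 7 (exact permutation test, two-sided p = 0.2, 0.1 and 0.1). Vessel markers were present, with a mean of the 10 contractile smooth muscle genes between 14.68 and 14.81 and a mean of the 8 endothelial genes up to 9.48 on the day 0 arrays. Since RNA came from whole tissue, fewer cells of a type and less RNA per cell cannot be told apart.

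Rgs7bp, the membrane anchor, had the lowest adjusted p of the 9 genes on each day. Its signal was 9.91, 10.50 and 10.42 at day 0, 7.25, 7.78 and 8.35 at day 1, 7.75, 7.78 and 6.79 at day 3, and 6.60, 6.45 and 7.21 at day 7. All 9 treated arrays lay more than 1 unit below the lowest day 0 array. At day 1 it was 5.59-fold lower than at day 0 (log2 change -2.48 ± 0.36 SE, adjusted p = 0.0104). At day 3 it was 7.15-fold lower (-2.84 ± 0.36, adjusted p = 0.00354), and at day 7 it was 11.5-fold lower (-3.52, 95% interval -4.32 to -2.72, adjusted p = 0.000866). In order of level, day 0 came first with a mean of 10.27 ± 0.32, then day 1 with 7.79 ± 0.55, day 3 with 7.44 ± 0.56 and day 7 with 6.75 ± 0.40 (SD, n = 3 each). Neighbouring treated days overlapped. All 3 day 7 arrays lay below all 3 day 1 arrays, but that difference missed the threshold (-1.04 ± 0.36, adjusted p = 0.0944).

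Some settings could not change the day 7 estimate of Rgs7bp. It has 1 transcript cluster, so averaging features had no effect, and neither change of filter moved it. Leaving out an array of day 1 or 3 changed only the spread and the adjustment. Without the 4 arrays high in neuron genes, which leaves 1 array at day 7, the change was -3.56. The day 7 fall passed the test in all 12 fits that left out an array and in the settings with more than 1 array at day 7. Its log2 changes lay between -3.80 and -2.73. The day 3 fall missed it only when the 4 arrays high in neuron genes were left out, a setting chosen after seeing the data (-2.73, adjusted p = 0.0526). The day 1 fall missed it without those arrays (-2.37, adjusted p = 0.188) and with the adipocyte mean as a covariate (-1.88, adjusted p = 0.173). It also missed it without day 0 replicate 3 or day 1 replicate 2, with adjusted p between 0.0513 and 0.0530.

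Rgs7, an R7-type protein that Rgs7bp can anchor, was not among the 9 genes but fell as well. Its signal was 8.58, 8.57 and 8.74 at day 0, 6.75, 7.77 and 8.01 at day 1, 7.34, 7.31 and 6.92 at day 3, and 6.90, 7.64 and 7.72 at day 7. No treated array reached the day 0 arrays. It was 2.72-fold lower than day 0 at day 3 (adjusted p = 0.0220) and 2.32-fold lower at day 7 (adjusted p = 0.0260), and its change at day 1 missed the threshold (-1.12 ± 0.32, adjusted p = 0.0949). Across the 12 arrays Pearson r between Rgs7 and Rgs7bp was 0.87, and 0.70 once each day's mean was removed. These are descriptions over arrays that share their days.

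**Figure D1:**
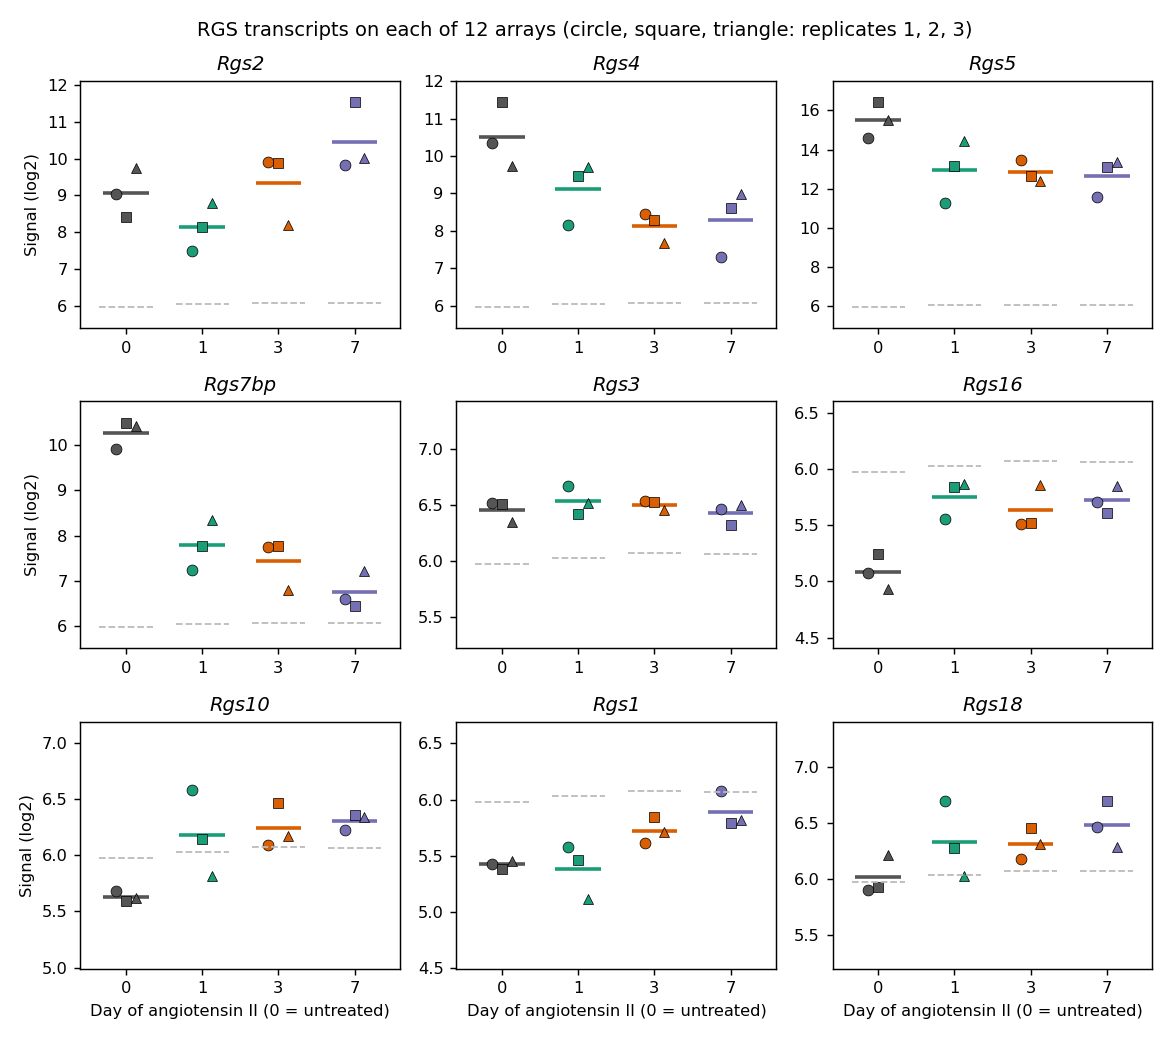
Log2 signal of each of the 9 genes (a panel each, y axis) on the 12 arrays by day of angiotensin II (x axis, days 0, 1, 3 and 7). Points are arrays and bars are the day means. Dashed lines are the median, over the arrays of a day, of the negative control medians. Rgs4, Rgs5 and Rgs7bp lie below their day 0 arrays on all 9 treated arrays, Rgs10 and Rgs16 lie above them by less than 1 unit, and Rgs2 is highest, at 11.53, on a day 7 array.

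Rgs4, a small RGS protein that acts on Gq and Gi, had signals of 10.33, 11.43 and 9.74 at day 0, 8.16, 9.46 and 9.71 at day 1, 8.46, 8.28 and 7.66 at day 3, and 7.31, 8.60 and 8.98 at day 7. All treated arrays were below all day 0 arrays, the third array of day 1 only just. It fell at day 3, to 5.16-fold below day 0 (-2.37 ± 0.58 SE, adjusted p = 0.0304). It fell at day 7, to 4.61-fold below day 0 (-2.20 ± 0.58, adjusted p = 0.0254). At day 1 the change was -1.39 ± 0.58 (adjusted p = 0.261). The order of the means was day 0 at 10.50 ± 0.86, day 1 at 9.11 ± 0.83, day 7 at 8.30 ± 0.87 and day 3 at 8.13 ± 0.42 (SD, n = 3 each), and the treated days overlapped one another.

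Rgs5, a marker of pericytes and of arterial smooth muscle, had signals of 14.60, 16.41 and 15.53 at day 0, 11.25, 13.17 and 14.45 at day 1, 13.45, 12.67 and 12.41 at day 3, and 11.55, 13.09 and 13.35 at day 7. Its treated arrays were also all below day 0, and day 1 replicate 3 was again the nearest. At day 7 it was 7.21-fold lower than at day 0 (-2.85 ± 0.81 SE, 95% interval -4.67 to -1.03, adjusted p = 0.0328). The changes at day 1 (-2.56 ± 0.81, adjusted p = 0.129) and day 3 (-2.67 ± 0.81, adjusted p = 0.0630) were of like size and missed the threshold. Day 0 had a mean of 15.51 ± 0.91, day 1 of 12.96 ± 1.61, day 3 of 12.84 ± 0.54 and day 7 of 12.66 ± 0.97 (SD, n = 3 each), and the 3 treated means differed by less than the spread of any of them.

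Single arrays decided several of these calls. Rgs4 at day 3 missed the threshold without day 0 replicate 1 or 2 or without any day 3 array (adjusted p 0.0535 to 0.116). At day 7 it missed it without day 0 replicate 1 or 2 or day 7 replicate 1 (0.0596 to 0.0804). Rgs5 at day 7 missed it without day 0 replicate 2 or 3 or day 7 replicate 1 or 2 (0.0591 to 0.106). Rgs5 passed at day 3 without day 1 replicate 1 (adjusted p = 0.0279), day 1 replicate 3 (0.0388) or day 7 replicate 1 (0.0487), on the 6 arrays of days 3 and 0 alone (0.0253) and with the replicate number as a block (0.0491).

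The values of Rgs4 and Rgs5 moved with the control features. With the positive minus negative control difference as a covariate, the day 7 change was -0.38 ± 0.54 for Rgs4 (adjusted p = 0.750) and -0.32 ± 0.77 for Rgs5 (adjusted p = 0.863), while that of Rgs7bp was -2.73 ± 0.48 (adjusted p = 0.0253). The control difference itself differed between the days, so its part in the falls and that of infusion cannot be told apart. With the adipocyte mean as a covariate the day 7 changes were -1.73 for Rgs4 (adjusted p = 0.115) and -2.03 for Rgs5 (adjusted p = 0.138). The adipocyte mean was lower on all arrays of days 3 and 7 than on any day 0 array, so its part cannot be told apart from that of infusion either.

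Smooth muscle and mural cell markers were lower on the same arrays. The mean of the 10 contractile smooth muscle genes was 14.68 to 14.81 at day 0, 12.33 to 14.25 at day 1, 11.63 to 12.81 at day 3 and 8.74 to 11.78 at day 7; Acta2 was at the ceiling of the scale at day 0, so the first range is a lower bound. Of these 10 genes 1 fell at day 1, 4 at day 3 and 9 at day 7, where 1.67, 7.28 and 13.4% of all genes tested did. At day 7 these included the integrin Itga8 (-7.46 ± 1.28 SE), the smooth muscle myosin Myh11 (-6.40 ± 1.07) and the actin-binding Synpo2 (-5.99 ± 0.76). Day 1 replicate 3, the treated array nearest to day 0 for Rgs4 and Rgs5, also had the highest treated contractile mean, at 14.25.

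Of 9 mural cell and pericyte genes tested, 1 fell at day 1, 2 at day 3 and 4 at day 7. Over all genes tested 1.67, 7.28 and 13.4% fell at these days, and 26.7% of those with a mean signal between 8 and 10 fell at day 7. Another 1 of the 9, Higd1b, rose at day 7 while under the negative control median on all arrays. Abcc9, a subunit of ATP-sensitive potassium channels, was -2.38 ± 0.26 against day 0 at day 7. Cspg4 (NG2) was -2.96 ± 0.59 and Mcam (CD146) -3.38 ± 0.65. Rgs5 itself was kept out of that list. The part of these cells in the values of Rgs4 and Rgs5 was not tested.

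**Figure D2:**
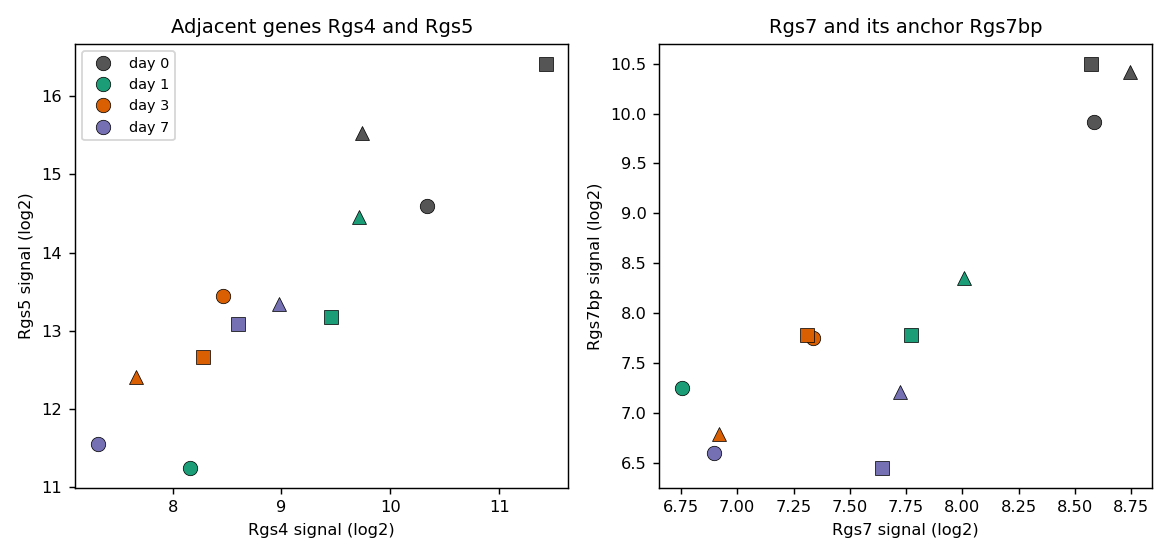
Log2 signal of Rgs5 against Rgs4 (left, adjacent genes) and of Rgs7bp against Rgs7 (right) on the 12 arrays; colour gives the day and the symbol the replicate number. The 3 day 0 arrays sit at the upper right in both panels, with Rgs5 between 14.60 and 16.41 and Rgs7bp between 9.91 and 10.50.

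Over the 12 arrays Pearson r was 0.91 between Rgs4 and Rgs5 and 0.88 between Rgs5 and Rgs7bp, and 0.85 and 0.75 once each day's mean was removed. Genes with predicted or clone-like symbols and small RNA genes were left out when the most alike genes were ranked. Among the rest, the genes most like Rgs7bp by r over the 12 arrays were Sorl1 (0.99), Kcnab1 (0.98) and Efhd1 (0.98). Those most like Rgs4 were the mitochondrial enzyme genes Pdha1 (0.98), Atp5a1 (0.97) and Ndufa8 (0.97). Those most like Rgs5 were Asb13 (0.97), Samm50 (0.97) and the mitochondrial fumarase gene Fh1 (0.96). Day means and the array differences above are shared by all of these pairs.

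Rgs2, the Gq-selective regulator, varied widely between arrays of a day and did not pass the test on any day. Its signal was 9.05, 8.43 and 9.75 at day 0, 7.49, 8.15 and 8.80 at day 1, 9.91, 9.89 and 8.19 at day 3, and 9.82, 11.53 and 10.03 at day 7. Days 0, 1 and 3 overlapped, and all 3 day 7 arrays lay above all 3 day 0 arrays, the nearest by a small margin. The change at day 7 was 1.38 ± 0.62 SE with a 95% interval of -0.01 to 2.77 (adjusted p = 0.117). At day 1 it was -0.93 ± 0.62 (adjusted p = 0.560) and at day 3 0.25 ± 0.62 (adjusted p = 0.804).

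The widest separation of Rgs2 was between treated days. At day 7 it was 4.96-fold higher than at day 1 (2.31 ± 0.62 SE, adjusted p = 0.0589), with no overlap of the arrays. Leaving out day 7 replicate 3 brought it past the threshold (adjusted p = 0.0455). The order of the means was day 7 at 10.46 ± 0.94, day 3 at 9.33 ± 0.99, day 0 at 9.08 ± 0.66 and day 1 at 8.15 ± 0.66 (SD, n = 3 each), and only day 7 with day 0 and day 7 with day 1 did not overlap.

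The highest value of Rgs2, 11.53, was on day 7 replicate 2, the array with the highest mean of the 5 neuron genes, 8.87. The other arrays high in neuron genes had Rgs2 signals of 8.43 at day 0, 8.15 at day 1 and 10.03 at day 7, and the remaining 8 arrays ranged from 7.49 to 9.91. Without the 4 arrays, which leaves 1 array at day 7, the day 7 change against day 0 was 0.41 ± 0.93 (adjusted p = 0.754), and with the neuron mean as a covariate it was 1.15 ± 0.73 (adjusted p = 0.237). With the same kinds of genes left out as above, those most like Rgs2 over the 12 arrays were Hist1h1c (0.89), Vmn1r200 (0.88) and Cd300lg (0.87).

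**Figure D3:**
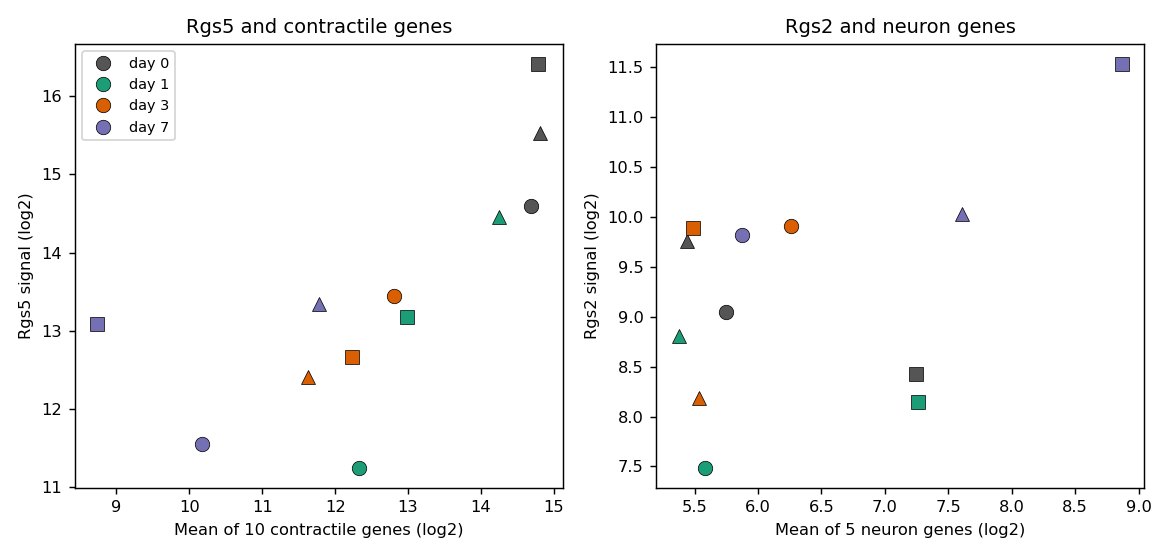
Log2 signal of Rgs5 against the mean of 10 contractile smooth muscle genes (left) and of Rgs2 against the mean of 5 neuron genes (right) on the 12 arrays; colour gives the day and the symbol the replicate number. Rgs5 and the contractile mean are both highest on the 3 day 0 arrays, and the day 7 array with Rgs2 at 11.53 is the one with the neuron mean at 8.87.

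Rgs3, another R4-type regulator with long and short isoforms, varied little between arrays and did not pass the test on any day. It lay between 6.32 and 6.67 on all 12 arrays, and day 0 had a mean of 6.46 ± 0.09, day 1 of 6.54 ± 0.13, day 3 of 6.50 ± 0.05 and day 7 of 6.43 ± 0.09 (SD, n = 3 each). The 95% interval of its change was -0.12 to 0.27 at day 1, -0.15 to 0.24 at day 3 and -0.22 to 0.16 at day 7. One transcript cluster cannot separate its isoforms.

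Rgs1, Rgs10, Rgs16 and Rgs18 had low signals. Rgs16 and Rgs1 lay under the median of the negative control features on all 12 arrays, Rgs10 on 4 and Rgs18 on 2. The median of all transcript clusters, 5.37 to 5.88, also lay under that of the negative control features, 5.91 to 6.14, on each array. A gene under it is therefore not unusual on these arrays. Rgs16, which acts on Gi and Gq, had signals of 5.08, 5.24 and 4.93 at day 0, 5.56, 5.84 and 5.86 at day 1, 5.51, 5.52 and 5.86 at day 3, and 5.71, 5.61 and 5.85 at day 7. No treated array overlapped day 0, and the treated days overlapped one another. It rose by 0.67 ± 0.13 SE at day 1 (adjusted p = 0.0284), 0.55 ± 0.13 at day 3 (adjusted p = 0.0288) and 0.64 ± 0.13 at day 7 (adjusted p = 0.0102).

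Rgs10, a Gi-selective regulator known from microglia and macrophages, had signals of 5.68, 5.59 and 5.62 at day 0, 6.58, 6.15 and 5.81 at day 1, 6.09, 6.47 and 6.17 at day 3, and 6.23, 6.36 and 6.34 at day 7. All treated arrays again lay above day 0. It rose at day 3 (0.61 ± 0.17 SE, adjusted p = 0.0496) and day 7 (0.68 ± 0.17, adjusted p = 0.0230), and at day 1 the change was 0.55 ± 0.17 (adjusted p = 0.126).

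Rgs1, which limits chemokine receptor signalling in lymphocytes, had signals of 5.42, 5.39 and 5.46 at day 0, 5.57, 5.46 and 5.11 at day 1, 5.61, 5.84 and 5.71 at day 3, and 6.07, 5.79 and 5.81 at day 7. Day 1 overlapped day 0, and days 3 and 7 lay above it. It rose at day 7 (0.47 ± 0.13 SE, adjusted p = 0.0276), and its changes were -0.04 ± 0.13 at day 1 and 0.30 ± 0.13 at day 3 (adjusted p = 0.158).

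Rgs18, known from platelets and megakaryocytes, had signals between 5.90 and 6.22 at day 0, 6.03 and 6.69 at day 1, 6.18 and 6.45 at day 3, and 6.29 and 6.70 at day 7. Its day 7 arrays lay above day 0, with a change of 0.47 ± 0.18 SE (adjusted p = 0.0737). Its changes were 0.32 ± 0.18 at day 1 (adjusted p = 0.445) and 0.30 ± 0.18 at day 3 (adjusted p = 0.289).

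Dim genes as a whole were shifted upward on the later days. Genes tested with a mean signal between 5 and 6, the range of Rgs1 and Rgs16, had a median change of 0.03 at day 1, 0.17 at day 3 and 0.25 at day 7. In that range 13.8% rose at day 7. Genes between 6 and 7, the range of Rgs10 and Rgs18, had medians of 0.01, 0.04 and 0.06. The median of all genes tested at day 7 was 0.09 as deposited, -0.11 after quantile normalization and -0.19 after centring each array on its median. Calls at day 7 split into 2673 higher and 2911 lower as deposited, 1250 and 4174 after quantile normalization, and 1275 and 4865 after centring. Under both scalings Rgs16, Rgs10 and Rgs1 kept a positive change on the days on which they had risen but missed the threshold: at day 7 after quantile normalization the changes were 0.35 (adjusted p = 0.142), 0.43 (adjusted p = 0.0695) and 0.20 (adjusted p = 0.115). Rgs4, Rgs5 and Rgs7bp were called after both scalings on the days given above.

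The rises of Rgs1 and Rgs10 were smaller with the control difference as a covariate. Those of Rgs16 were larger on each day, and their standard errors were larger too. With the control difference as a covariate the day 7 change was 0.12 ± 0.14 SE for Rgs1 (adjusted p = 0.691), 0.48 ± 0.27 for Rgs10 (adjusted p = 0.372) and 0.73 ± 0.21 for Rgs16 (adjusted p = 0.103). At day 3 it was 0.47 for Rgs10 (adjusted p = 0.314) and 0.62 for Rgs16 (adjusted p = 0.111), and the day 1 rise of Rgs16 passed (0.71, adjusted p = 0.0393).

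Single arrays mattered for these rises too. The day 7 rise of Rgs16 passed in all 12 fits that left out an array (adjusted p at most 0.0395). Its day 1 rise missed the threshold without any day 0 array or without day 1 replicate 2 or 3 (0.0541 to 0.118), and its day 3 rise without day 0 replicate 1 or 3 or day 3 replicate 2 or 3 (0.0589 to 0.105). Rgs10 at day 3 passed only when day 1 replicate 1 or 3 was the array left out, and otherwise had adjusted p between 0.0519 and 0.157. At day 7 it missed the threshold without any day 0 array or day 7 replicate 2 (0.0555 to 0.0660). Rgs1 at day 7 missed it without any day 0 array or day 7 replicate 1 (0.0631 to 0.0857). Without day 1 replicate 1 Rgs18 passed at day 7 (adjusted p = 0.0380), and without day 1 replicate 3 Rgs10 passed at day 1 (0.0292) and Rgs5 at day 1 (0.0474).

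Blood cell markers were read beside these genes. Of all genes tested 2.01% rose at day 1, 4.63% at day 3 and 12.3% at day 7. Of 11 macrophage genes 8 rose at day 1, 9 at day 3 and 9 at day 7, with a mean over the list of 7.60 to 7.96 at day 0, 9.13 to 9.57 at day 1, 9.07 to 9.58 at day 3 and 8.53 to 9.63 at day 7. At day 7 lysozyme Lyz2 had risen by 3.19 ± 0.38 SE and complement C1qb by 1.92 ± 0.37. Of 10 T and B lymphocyte genes on the array, 10 were under the negative control median on all 12 arrays, as was the median of all transcript clusters. Of the 5 that were tested 0 passed in either direction on any day. Of 7 platelet genes, 1 rose, Pf4, at day 1 (1.00 ± 0.18) and day 3 (1.04 ± 0.18), and the defining Itga2b and Gp6 were under the negative control median on all arrays. Of 6 neutrophil genes tested 2, S100a8 and Csf3r, rose at days 3 and 7 and also lay under it on all arrays. The part of these cells in the values of Rgs1, Rgs10, Rgs16 and Rgs18 was not tested.

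Markers of other cells of the vessel and its surroundings were counted too. Of all genes tested 2.01, 4.63 and 12.3% rose and 1.67, 7.28 and 13.4% fell at days 1, 3 and 7, and several of these counts are near those shares. Of 7 fibroblast genes 2 rose at day 3 and 3 at day 7. Of 7 cardiac and skeletal muscle genes tested 5 rose at day 7. Of 5 mast cell genes tested 1 rose and 1 fell at day 3 and 3 fell at day 7. Of 8 endothelial genes 1 fell at day 3 and 2 at day 7. Of 10 adipocyte genes 1 rose and 1 fell at day 1 and again at day 3, and 1 rose at day 7. None of 7 peripheral nerve genes was called on any day. Their part in the values of the 9 genes was not tested.

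By r over the 12 arrays, with the same kinds of genes left out, the genes most like Rgs10 were Arhgap4 (0.96), Ccdc18 (0.96) and Rasgrp4 (0.95). Those most like Rgs18 were Selplg (0.91), Olfr381 (0.91) and Lair1 (0.91), and Selplg and Lair1 encode leukocyte surface proteins. Those most like Rgs1 were Rnf17, Cyp3a16 and Sox11 (0.95, 0.95 and 0.94), and those most like Rgs16 were Hmga2-ps1, Nuak2 and Txlna (0.90, 0.89 and 0.88). Rgs3, which hardly varied, was most like Itgb4, Tcof1 and Dusp19 (0.88, 0.85 and 0.84).

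**Figure D4:**
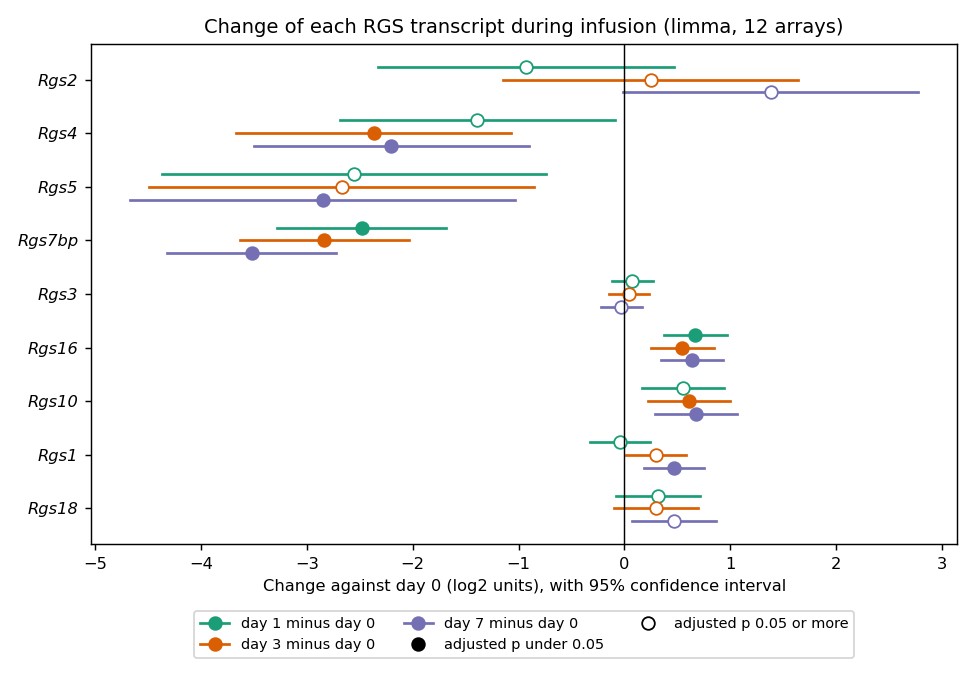
Log2 change of each of the 9 genes (rows) at days 1, 3 and 7 against day 0 (x axis, with 0 for no change); points are limma estimates, bars their 95% intervals, and filled points passed adjusted p under 0.05. Rgs7bp passes on all 3 days, Rgs4 on days 3 and 7 and Rgs5 on day 7 to the left of 0, and Rgs16, Rgs10 and Rgs1 pass to the right of it with changes under 0.7.

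Counted over the 9 genes, 1 rose and 1 fell at day 1, where 2.01% and 1.67% of all genes tested did. At day 3 2 rose and 2 fell, where 4.63% and 7.28% of all genes did. At day 7 3 rose and 3 fell, where 12.3% and 13.4% did. Rgs16, counted among those that rose on each day and in the F test below, passed the filter only through its treated arrays. The F test over the 3 days called Rgs7bp (adjusted p = 0.00326), Rgs16 (0.0232) and Rgs1 (0.0496), where it called 14.8% of all genes, and it gave 0.0557 for Rgs4 and 0.0799 for Rgs5. All 3 arrays of a day lay above all day 0 arrays for 2 of the 9 genes at day 1, 3 at day 3 and 5 at day 7, against 11.8%, 23.2% and 26.6% of all genes. They lay below for 3 of the 9 on each day, against 11.6%, 21.6% and 20.7%. All 9 treated arrays lay below all 3 day 0 arrays for 3 of the 9 genes, against 7.88% of all genes, and above them for 2, against 5.97%. These counts are descriptions of genes chosen with earlier results of the data known. The median change of the 9 was -0.04 at day 1, 0.25 at day 3 and 0.47 at day 7, against 0.01, 0.08 and 0.09 over all genes tested. Without the 4 arrays high in neuron genes 0 of the 9 passed at days 1 and 3 and 1, Rgs7bp, at day 7. That setting called 1 gene of all those tested at day 1.

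Between treated days none of the 9 passed in limma. For day 3 against day 1, where 0% of all genes passed, 1 of the 9, Rgs1, had an unadjusted p under 0.05. For day 7 against day 3, where 0.272% passed, none did. For day 7 against day 1, where 4.8% passed, Rgs1, Rgs2 and Rgs7bp did, with Rgs1 at 0.51 ± 0.13 SE (adjusted p = 0.0517). The 3 arrays of day 7 lay above the 3 of day 1 for 2 of the 9 genes, Rgs1 and Rgs2, against 14.2% of all genes, and below them for Rgs7bp, against 11.4%. Rgs1 passed there with a variance trend and robust estimation (adjusted p = 0.0487), and both Rgs1 (0.0318) and Rgs7bp (0.0390) passed with the adipocyte mean as a covariate. Without day 1 replicate 1 Rgs1 (0.0308) and Rgs7bp (0.0472) passed, and without day 7 replicate 3 Rgs1 (0.0383) and Rgs2 did. In a fit of the 6 arrays of days 7 and 1 alone with the replicate number as a block, chosen after seeing the data, Rgs4 passed (-0.81 ± 0.07 SE, adjusted p = 0.0370), and over all genes 1293 rose and 830 fell.

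Other genes with an RGS domain or an R7 binding role mostly had low signals. Of 17 on the array 13 were under the negative control median on all 12 arrays, as was the median of all transcript clusters. The filter on dim signals was passed by 10. Of those 10, Rgs7 fell at days 3 and 7 as above, Rgs17 rose at day 3 (0.29 ± 0.07 SE) and Axin1, a scaffold of the Wnt pathway with an RGS domain, fell at day 7 (-0.24 ± 0.08). None of the 10 was called at day 1. Shares over all genes tested were 2.01, 4.63 and 12.3% risen and 1.67, 7.28 and 13.4% fallen at days 1, 3 and 7. Their median change was 0.02, 0.12 and 0.16 at days 1, 3 and 7.

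Receptors that couple to G proteins were read as well. The angiotensin receptor gene Agtr1a was not called on any day. It had signals of 7.07, 7.57 and 7.03 at day 7, against 6.57, 6.76 and 6.52 at day 0, a change of 0.61 ± 0.22 SE (adjusted p = 0.0647), and no array of either day overlapped. Agtr1b was listed at the same value, 6.81, on 9 of 12 arrays, so its test says nothing. Of 15 Gq and G12/13 coupled receptor genes tested, 1 rose and 1 fell at day 1, 3 rose and 1 fell at day 3, and 3 fell at day 7. Over all genes tested 2.01, 4.63 and 12.3% rose and 1.67, 7.28 and 13.4% fell at days 1, 3 and 7. The serotonin receptor Htr2a fell on each day, by 0.90, 1.30 and 1.35 at days 1, 3 and 7. The endothelin receptor Ednrb rose at day 3 (1.22 ± 0.24) and the sphingosine phosphate receptor S1pr2 at days 1 (0.43 ± 0.07) and 3 (0.48 ± 0.07).

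Of 11 Gi and Gs coupled receptor genes tested, none was called at day 1, 2 rose and 2 fell at day 3, and 4 rose and 2 fell at day 7. The shares over all genes tested were 2.01, 4.63 and 12.3% risen and 1.67, 7.28 and 13.4% fallen at days 1, 3 and 7. The neuropeptide Y receptor Npy1r was 5.01-fold lower than day 0 at day 7 (-2.32 ± 0.39 SE), and the calcitonin receptor-like receptor Calcrl was 2.50-fold lower (-1.32 ± 0.28). The monocyte chemokine receptor Ccr2 was 4.68-fold higher (2.23 ± 0.32). Of the G protein-coupled receptor kinases and arrestins, 6 were tested and 1 was called: Grk5 rose at day 1 (0.98 ± 0.22) and day 3 (0.99 ± 0.22).

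Genes of G protein subunits were counted last. They include the G alpha subunits that RGS proteins bind and also G beta and G gamma subunits. Of 23 tested 1 fell at day 1, 5 at day 3 and 9 at day 7, while 2 rose, at day 7, where 1.67, 7.28 and 13.4% of all genes tested fell at these days and 12.3% rose at day 7. Gnai1, a G alpha i subunit, fell on each day, by 1.38 ± 0.27 SE, 1.84 ± 0.27 and 2.12 ± 0.27. At day 7 Gnai2 fell by 1.45 ± 0.33 and Gnb1 by 1.36 ± 0.35. Their median change was -0.07, -0.11 and -0.27 at days 1, 3 and 7. Genes tested with a mean signal between 7 and 8, whatever their function, had medians of -0.02, -0.10 and -0.12, and 23.2% of them fell at day 7. Those between 8 and 10 had medians of -0.04, -0.16 and -0.27, and 26.7% fell.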

How the data were processed

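Signals were log2 values per transcript cluster that the authors deposited for 12 arrays. Per the submitters' processing notes they were made with Affymetrix Expression Console. The sources used here give neither its version nor the background correction and normalization behind the values. An earlier mouse genome array is named in the labels, whereas the features are transcript clusters, and genes were named from the annotation of those clusters. Of 72688 features 6732 were controls, and of 65956 transcript clusters 30604 had 1 symbol, 2146 several and 33206 none. The number of arrays limits the precision.

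Values were used as deposited. For each of 30145 genes the cluster with the highest mean was taken, and 21717 genes with at least 3 of 12 arrays at 5.25 or more, the 40th percentile over all clusters, were tested. R 4.3.3 with limma 3.58.1 was fitted with a mean per day over all 12 arrays, with empirical Bayes without trend and Benjamini-Hochberg adjustment, and calls were made at adjusted p under 0.05. Tested on simulated data with 200 changed genes of 21717, the fit recovered 55, 56 and 59% of changes of 1 unit and 96, 93 and 94% of changes of 2 units at days 1, 3 and 7, with 13, 9 and 14 false calls. The simulated noise was normal and independent between genes, and each changed gene changed alike at days 1, 3 and 7. The data hold differences shared by whole arrays, so these shares need not hold for the 9 genes. Array quality was compared by exact permutation tests. Other settings were median centring, quantile normalization, a stricter filter (60th percentile) or none, averaging a gene's features, the replicate number as a block, robust estimation with a variance trend, the 6 arrays compared alone, covariates for the control difference, the adipocyte mean and the neuron mean, leaving out each array, and leaving out the 4 arrays high in neuron genes.

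The 9 genes and the gene lists were chosen with earlier results of these data known. All 9 are described. Of the other lists, genes named are taken from the 3 called with the largest change per comparison with day 0, with Agtr1a, Agtr1b, the RGS family and, for each of the 9, the 3 genes with the highest r over the arrays. Genes with predicted or clone-like symbols, microRNA genes and small nucleolar and nuclear RNA genes were left out of the ranking by r. Some single genes behind small counts were named after their values were seen. Promoter windows are RefSeq's. A list of downstream effector genes is not reported here. Nothing says that the replicates shared mice or days. The 3 same-numbered pairs of arrays of days 7 and 1 deviated together (r 0.37 to 0.66), so these days were also fitted with the replicate number as a block, a pairing seen in the data and not stated in the labels.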

Additional observations from a re-analysis of the deposited data

How the results depend on the processing

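The number of the 9 genes called at day 1, 2 as reported, was 1 after quantile normalization, after centring, with the filter at the 60th percentile and on the 6 arrays alone, 0 with the adipocyte covariate and 0 without the 4 arrays high in neuron genes, and 0 to 3 when single arrays were left out. At day 3 the count of 4 became 2 after quantile normalization and 2 after centring, 1 with the control difference and 1 with the adipocyte mean as covariate, 0 without the 4 arrays, and 1 to 5 when single arrays were left out. At day 7 the count of 6 became 3 after quantile normalization and 3 after centring, 1 with the control difference, 2 with the adipocyte mean, 1 without the 4 arrays, and 2 to 7 when single arrays were left out. Smaller moves were 6 at day 3 and 5 at day 7 on the 6 arrays compared alone, where Rgs5 and Rgs1 (adjusted p = 0.0482) gained a call at day 3, 3 at day 3 and 4 at day 7 with the filter at the 60th percentile, and 3 at day 3 with no filter and with the neuron covariate. For day 7 against day 1 the count of 0 became 1 with the replicate block on the 6 arrays alone, 1 with variance trend and robust estimation, 2 with the adipocyte mean, and 0 to 2 when single arrays were left out. Day 3 against day 1 and day 7 against day 3 gave 0 in all settings. The F test, 3 as reported, called 1 after quantile normalization, 1 with the control difference, 0 without the 4 arrays, and 1 to 6 when single arrays were left out. Calls over all genes tested moved as well. As reported 436 rose and 362 fell at day 1, 1005 and 1581 at day 3, and 2673 and 2911 at day 7. With the control difference these counts were 638 and 370, 277 and 196, and 485 and 281. With the adipocyte mean they were 5 and 5, 34 and 67, and 631 and 1268. After quantile normalization they were 270 and 171 at day 1 and 542 and 1298 at day 3. After centring they were 289 and 148, and 472 and 1597. On the 6 arrays compared alone they were 129 and 79, 1913 and 2567, and 1196 and 1531 at days 1, 3 and 7. With no filter they were 334 and 262, 894 and 1306, and 2702 and 2627 of 30145 genes. With the filter at the 60th percentile they were 477 and 447, 922 and 1675, and 2021 and 2995 of 15258 genes. With the neuron covariate they were 432 and 359, 952 and 1415, and 1984 and 3024. When single arrays were left out, 67 to 562 of all genes rose and 38 to 595 fell at day 1. At day 3 the ranges were 287 to 1409 and 426 to 2057, and at day 7 1014 to 4165 and 1736 to 3251. Centring, quantile normalization and the covariates change the values themselves. Leaving arrays out or the stricter filter changes what is tested. The cause of each change was not tested. The neuron covariate, leaving out the 4 arrays and the block on the 6 arrays of days 7 and 1 were chosen after seeing the data.

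With the replicate number as a block the counts were 2, 4 and 6 at days 1, 3 and 7 and 2 in the F test; at day 3 Rgs5 gained and Rgs10 lost its call (adjusted p = 0.0638). Of 18 same-numbered pairs of arrays 7 had r over 0.1, with a range of -0.51 to 0.66. Those 7 held all 3 pairs of days 7 and 1 and no pair of days 1 and 0 or of days 7 and 0, and 7 of 12 arrays correlated best with their own number. For single genes and comparisons, some settings keep the estimate by design, such as averaging the features of genes with 1 transcript cluster. Of the values, 1135 stayed on their side of the threshold with the same direction, 86 lost a call and 17 gained one. Another 55, of 19 genes and comparisons, changed sign, and all 55 were called neither as reported (adjusted p at least 0.289) nor in the other setting (at least 0.347). For day 1 against day 0 these were -0.050 for Rgs18 with the adipocyte mean. When single arrays were left out the range there was -0.14 to 0.093 for Rgs1. For day 3 against day 0 these were -0.076 for Rgs2 without the 4 arrays, -0.056 for Rgs3 after quantile normalization, -0.14 for Rgs3 after centring, -0.0064 for Rgs3 with the control difference, -0.030 for Rgs18 with the adipocyte mean. When single arrays were left out the range there was -0.076 to 0.82 for Rgs2 and -0.0091 to 0.073 for Rgs3. For day 3 against day 1 these were 0.70 for Rgs5 and -0.0015 for Rgs10 with the control difference, 0.033 for Rgs5 with the neuron mean, -0.048 for Rgs10 after quantile normalization, -0.088 for Rgs10 after centring, 0.020 for Rgs18 with the adipocyte mean. When single arrays were left out the range there was -0.091 to 0.035 for Rgs3, -0.97 to 0.63 for Rgs5, -0.12 to 0.26 for Rgs10 and -0.17 to 0.16 for Rgs18. For day 7 against day 0 these were 0.0090 for Rgs3 with the neuron mean, 0.034 for Rgs3 without the 4 arrays. When single arrays were left out the range there was -0.083 to 0.024 for Rgs3. For day 7 against day 1 these were 0.27 for Rgs4, 1.20 for Rgs5, 0.022 for Rgs16 and -0.0070 for Rgs18 with the control difference, -0.067 for Rgs10 and -0.0031 for Rgs18 after quantile normalization, -0.11 for Rgs10 and -0.088 for Rgs18 after centring. When single arrays were left out the range there was -1.15 to 0.45 for Rgs5, -0.057 to 0.33 for Rgs10 and -0.13 to 0.024 for Rgs16. For day 7 against day 3 these were -0.044 for Rgs4 with the adipocyte mean, -0.67 for Rgs4 with the neuron mean, -0.82 for Rgs4 and -0.017 for Rgs10 without the 4 arrays, 0.50 for Rgs5 with the control difference, -0.019 for Rgs10 and -0.011 for Rgs16 after quantile normalization, -0.025 for Rgs10 and -0.0027 for Rgs16 after centring. When single arrays were left out the range there was -0.18 to 0.66 for Rgs4, -0.52 to 0.38 for Rgs5 and -0.0087 to 0.18 for Rgs10. Signal over background limits Rgs1 and Rgs16 most, since both were under the negative control median on all arrays.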
